A study of Mus musculus with 53 samples.

Results

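Transcription factors that commit early thymocytes to the T lineage were examined in mouse T-cell lymphoblast tumours of 15 genetic backgrounds. The 7 genes of the set were Bcl11b, Gata3, Tcf7, Lef1, Ets1, Ikzf1 and Bcl11a, chosen by name, and every probe set that the platform's gene table assigns to them was taken. The table named 10 probe sets for 6 of these genes, out of 22690 probe sets on the array, while Tcf7 was not analysed here. Bcl11b, Gata3, Lef1 and Ikzf1 had 1 probe set each, Bcl11a had 2 and Ets1 had 4. Of the 10 probe sets, 9 were above the array's median on at least 3 arrays and were tested, together with all 15585 probe sets that met this condition. The remaining probe set, 1426552_a_at of Bcl11a, was above the median on 0 arrays. The tested Bcl11a probe set was above it on 13 arrays, all 6 of TLX1, all 3 of ThPOK, 2 of p53 knockout and 1 each of 2 other backgrounds, so it was tested because of the groups where it is high, and its values elsewhere are dim. Ikzf1 and Lef1 were above it on 47 arrays each, and the brightest probe sets of Bcl11b, Gata3 and Ets1 on at least 51. Where a gene had several probe sets, the brightest was read as the gene's level and the others are given beside it.

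T-cell development starts when Notch signalling in the thymus acts on blood-borne progenitors. Notch induces TCF-1, the product of Tcf7, and GATA-3, and these factors open T-cell genes and help to switch on Bcl11b. Bcl11b closes the progenitor programme at commitment, and its loss lets cells drift towards other lymphoid fates. Lef1 is the close relative of Tcf7 and, like it, can pair with beta-catenin. Ets1 serves T-cell receptor gene expression and thymocyte survival. Ikzf1 encodes Ikaros, a zinc-finger factor that restrains Notch targets and acts as a tumour suppressor in T-cell leukaemia. Bcl11a is the relative of Bcl11b that works in progenitors and B cells and is normally shut down as T cells commit.

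Each of the 53 arrays held RNA of a T-lymphoblast tumour from a C57BL/6 mouse without treatment. The transgenic backgrounds were beta-catenin (3 tumours), LMO1 (3), Olig with LMO1 (3), where titles write olig2 and genotype labels olig1, Nup98HoxD13 (3), Pokemon (2), Tal1 (2), Tal1 with LMO2 (3), ThPOK (3) and TLX1 (6). The mutant backgrounds were E2A knock out (2), rag E2A knock out (2), p53 knock out (3), Ikaros Plastic (3) and Cdkn2a knock out with retroviral insertional mutagenesis (9), whose titles name Myc, Ras, Myb or Pim1 with Ccnd3. For rag E2A knock out the genotype labels alone name rag, and the titles continue the numbering of the E2A knock out tumours. The last group came from a cross of TLX1 transgenic with RUNX heterozygous mice (6), called crossed tumours here. Labels call the TLX1 tumours TLX1 positive and all other groups, crossed tumours included, TLX1 negative. Promoters of the transgenes: not given in the sources used here. All groups are tumours, and no normal thymocytes were analysed here. Labels do not tell whether tumours of a background came from different animals, so the spread behind each p-value may be technical.

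Values are log2 of the deposited intensity, and a difference of 1 is a 2-fold difference. Array medians lay between 377.2 and 589.6 intensity units, lowest in the 6 crossed arrays (at most 403.4 against at least 441.3 in the 13 backgrounds that are neither TLX1 nor crossed). The control probe set for the 3′ end of 18S ribosomal RNA read 12.35 to 13.13 on the crossed arrays and 7.96 to 9.77 on all 47 others. On 27 control probe sets for bacterial genes, the arrays fell into 4 sets. The largest set held 38 arrays, another held all 6 TLX1 arrays and 2 of the p53 knockout arrays (replicates 1 and 2), another held just the 6 crossed arrays, and 1 Tal1 with LMO2 array stood apart. The excess of beta-actin signal at the 3′ over the 5′ end was 0.794 to 2.17 in TLX1, 0.569 to 0.883 in crossed and 0.044 to 1.53 (median 0.199) in the 13 other backgrounds, on the log2 scale. Of 7 T-cell markers on the array, at least 5 were above the array median in 52 of 53 tumours and 3 in p53 knockout replicate 2. Runx1 was lower in the 6 crossed tumours (8.95 to 9.38) than in any of the 47 others (9.59 to 12.155). The same held for 14.7% of all probe sets tested, so this alone does not check the RUNX label. Tlx1 was not higher in TLX1 tumours (7.59 to 7.99) than in the 47 others (7.38 to 8.70). In TLX1 tumours its probe set was dim, below the array medians (8.91 to 9.07). Whether it detects the transcript of the transgene was not tested, so these values do not check the TLX1 label. In the crossed tumours (7.38 to 7.55) Tlx1 too was below all 47 others (7.58 to 8.70). These tumours are bulk samples, so fewer cells of a type and less RNA per cell cannot be told apart.

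Promoter sequences of the 3 genes that were lower together in the Cdkn2a knockout tumours are shown first. The Bcl11b promoter and 1 of the 4 listed Lef1 promoters carry a core bound by TCF and LEF factors, the family of the members Tcf7 and Lef1. Each sequence shown is the 250 bases upstream of a RefSeq transcript start in GRCm38.p6, written 5′ to 3′ on the gene's strand. Matches to CTTTGA (TCF and LEF core, either strand) and GATAA (GATA core, either strand) are in capitals. Bcl11b lies at chr12:107910403-108004145, Lef1 at chr3:131110297-131224357 and Gata3 at chr2:9857078-9887953. Of the other genes, Ets1 lies at chr9:32636241-32757820, Ikzf1 at chr11:11684962-11772930 and Bcl11a at chr11:24076564-24173558. The Lef1 window shown belongs to the most downstream of its 4 listed starts, and the windows of its other listed starts held neither core.
Bcl11b, chr12:108003415-108003664, minus strand: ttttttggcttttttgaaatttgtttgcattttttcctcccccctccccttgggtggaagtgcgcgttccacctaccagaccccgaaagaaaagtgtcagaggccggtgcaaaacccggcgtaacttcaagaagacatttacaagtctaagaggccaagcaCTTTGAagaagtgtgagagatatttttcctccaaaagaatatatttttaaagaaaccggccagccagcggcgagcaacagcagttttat
Lef1, chr3:131156044-131156293, plus strand: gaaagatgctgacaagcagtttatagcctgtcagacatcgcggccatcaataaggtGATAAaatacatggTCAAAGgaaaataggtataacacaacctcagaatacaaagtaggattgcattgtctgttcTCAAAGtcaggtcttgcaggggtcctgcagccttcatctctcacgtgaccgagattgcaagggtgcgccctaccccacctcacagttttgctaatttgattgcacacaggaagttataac
Gata3, chr2:9878601-9878850, minus strand: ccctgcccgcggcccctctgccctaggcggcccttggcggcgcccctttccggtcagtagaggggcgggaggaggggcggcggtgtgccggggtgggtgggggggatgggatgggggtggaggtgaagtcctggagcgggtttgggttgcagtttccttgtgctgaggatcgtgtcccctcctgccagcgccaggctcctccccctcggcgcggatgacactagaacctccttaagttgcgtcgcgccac
Bcl11b held 1 TCF and LEF core, this Lef1 window held 2 such cores and 1 GATA core, and the Gata3 window held neither. RefSeq listed 11 promoters for 6 of the 7 genes, Ets1 not among them. Of these, 2 held CTTTGA, against 13.8% of all 32851 promoters, and 2 held GATAA, against 22.6%. The RUNX core TGTGGT was in 0 of the 11 and in 14% of all. These matches are letters in a window and say nothing of binding.

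All 6 genes differed between the 15 backgrounds by the moderated F test (adjusted p at most 0.00204), against 89.6% of all probe sets tested. The share of variance that lay between backgrounds was 88.6% for Ikzf1, 86.7% for Bcl11a, 78.7% for Lef1, 61.8% for Ets1, 57.7% for Bcl11b and 53.1% for Gata3, where the median probe set had 65.1%. The Bcl11b share rested on p53 knockout replicate 2, since without that array it was 79.1%, above the median of 66.9%, and the pooled SD within backgrounds fell from 0.64 to 0.38. Gata3 stayed below the median (53.9%) and Ikzf1 (88.5%) and Bcl11a (87.0%) above it without that array. In the order of the 15 background means, 0 of 14 neighbouring pairs of Bcl11b and 0 of 14 of Gata3 were further apart than the pooled SD within backgrounds (0.64 and 0.57). That count was 1 of 14 for Lef1, 1 for Ets1, 2 for Bcl11a and 3 for Ikzf1. The plot of levels by background shows these orders.

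**Figure D1:**
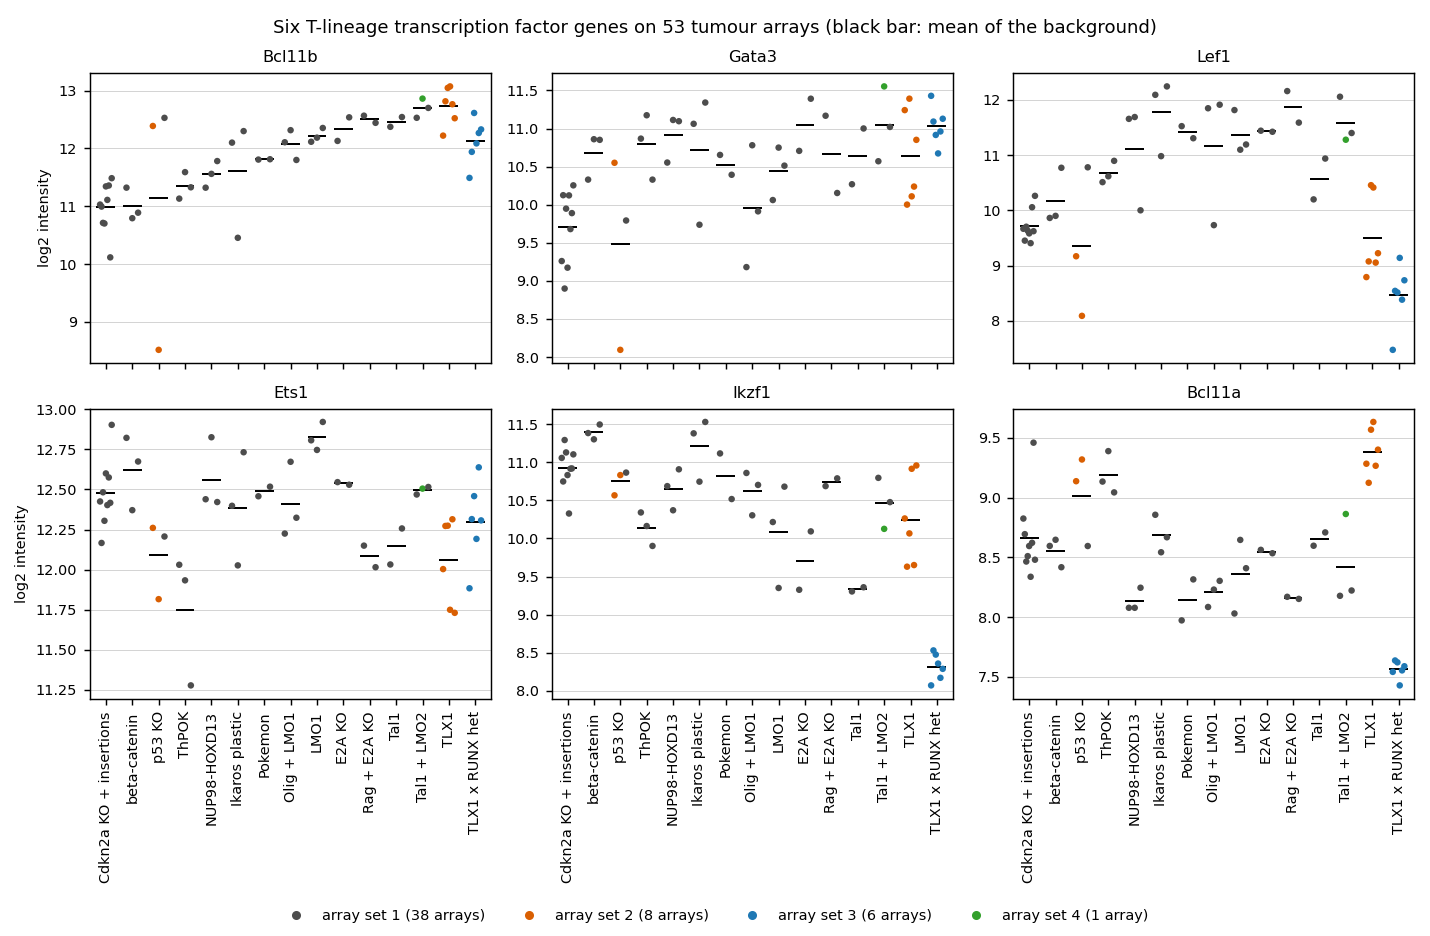
Each panel plots log2 intensity (vertical axis) of a gene on the 53 arrays, grouped by genetic background (horizontal axis). Points are single tumours, coloured by array set, and black bars are background means. The crossed tumours are the lowest in Ikzf1 (8.07 to 8.53), and p53 knockout replicate 2 lies at 8.52 in Bcl11b.

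Over the 13 backgrounds other than TLX1 and crossed, each background was set against the mean of the other 12. Of 78 pairs of gene and background, 13 passed an adjusted p of 0.05, 6 higher and 7 lower, against 17.2% of all pairs of probe set and background. The 13 lay in 7 backgrounds, and the other 6 had none on these probe sets, though 3 of those 6 had 1 call each on another probe set of Ets1, given with the Ets1 probe sets. The matrix of differences shows that no background moved all 6 genes.

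**Figure D2:**
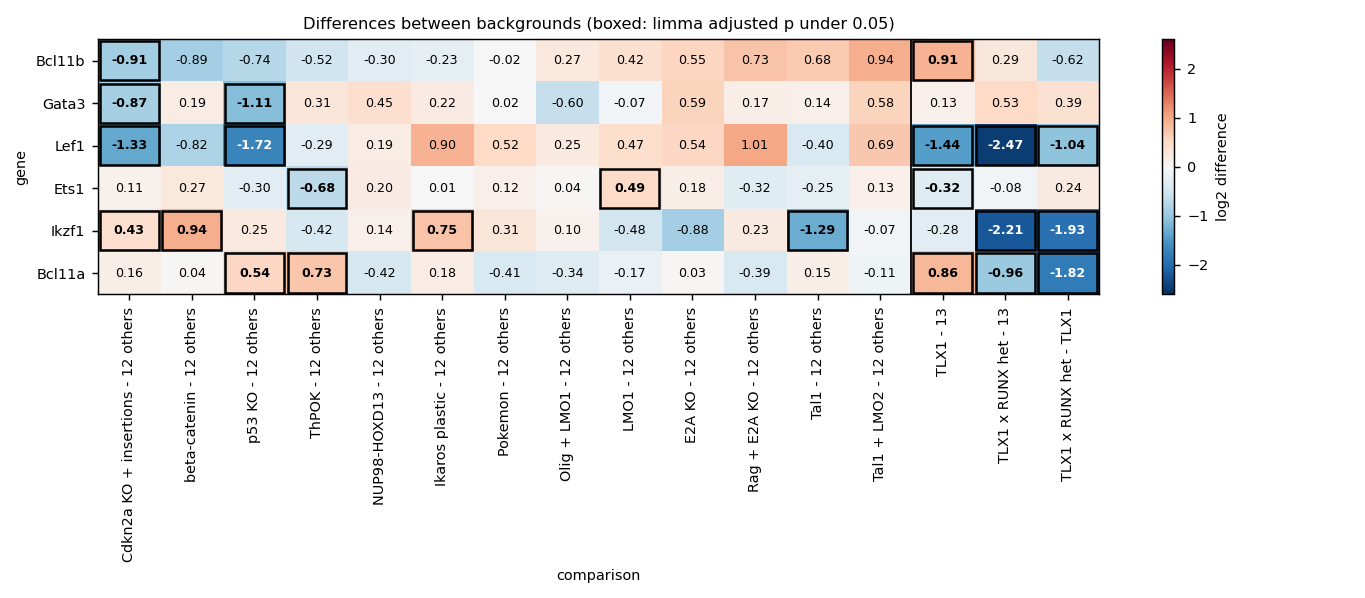
Colours and numbers give the log2 difference of each gene (rows) in each comparison (columns), with red for higher and blue for lower. Boxes mark limma adjusted p under 0.05; the Cdkn2a knockout column has 4 boxed genes and the 2 crossed columns have 3 each.

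Among the regulators of commitment itself, Bcl11b, Gata3 and Lef1 were all lower in the Cdkn2a knockout tumours. Bcl11b read between 10.12 and 11.48 (median 11.03, n = 9) there, and between 8.52 and 12.86 (median 11.80, n = 41) over all 13 backgrounds. Its mean was 0.91 ± 0.24 (SE) below that of the others on the log2 scale (10.98 against 11.90, adjusted p = 0.0017), a 1.88-fold difference. All 9 tumours lay below the mean of the others, though the groups overlapped. Gata3 ran from 8.90 to 10.25 (median 9.89) in these tumours and from 8.09 to 11.55 over the 13 backgrounds. It fell by 0.87 on the log2 scale (SE 0.21, adjusted p = 0.000839), and again 9 of 9 tumours lay below the mean of the others. Lef1 ran from 9.41 to 10.26 (median 9.63), a narrow band (SD 0.28) beside the 8.09 to 12.24 of all 13 backgrounds. It fell by 1.33 on the log2 scale, 2.52-fold (SE 0.24, adjusted p = 1.64e-05). Ikzf1 went the other way, with 10.33 to 11.29 (median 10.92) and a difference of 0.43 ± 0.13 (SE; adjusted p = 0.00805), and 8 of 9 tumours were above the mean of the others. In total 4 of 6 genes were called, against 42.7% of all probe sets. The Bcl11b, Gata3 and Lef1 calls held under each alternative in which these tumours were fitted. The Ikzf1 call was lost with arrays centred on their medians (0.30, adjusted p = 0.0605) and without the Tal1 tumours (0.33, adjusted p = 0.0505).

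Some other T-cell genes were also lower in the same Cdkn2a knockout tumours, in a comparison that called 42.7% of all probe sets. Of 14 T-cell identity genes tested, 0 rose and 5 fell, a count not above that share. The list median was -0.42 against 0.05 over all probe sets. Ptcra, the invariant chain of the pre-T-cell receptor, fell by 1.84 on the log2 scale (adjusted p = 9.36e-05), the adaptor Lat by 0.94 (adjusted p = 0.00111) and the CD3 chain Cd3e by 0.55 (adjusted p = 0.00182). Of 14 partner factors, 3 rose and 4 fell, and Notch1, the receptor that starts T-cell development, fell by 2.95 (adjusted p = 2.81e-09). Its target Hes1 fell by 1.31 (adjusted p = 8.26e-08), while the partner Gfi1 rose by 0.79 (adjusted p = 0.00663). The summed T-cell markers of these tumours ran from 14.04 to 14.945 (median 14.43), the range over 13 backgrounds being 12.57 to 15.45 (median 14.99). Their stromal, endothelial and epithelial markers summed to 12.95 to 13.84 (median 13.37, against 13.10 over the 13 backgrounds). Of 10 myeloid markers 5 rose and 0 fell, led by Lyz2 (0.72) and Csf3r (0.57), and they summed to 13.75 to 14.19 (median 13.98, against 13.75 over the 13 backgrounds). Of 6 B-cell markers tested 2 rose, Cr2 by 0.69 and Cd22 by 0.54. The part of these markers in the differences was not tested.

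In the beta-catenin tumours, where the transgene product is the partner of TCF and LEF factors, Ikzf1 was the one gene called on its brightest probe set. Bcl11b read 11.32, 10.79 and 10.89 in the 3 tumours, 0.89 below the others (adjusted p = 0.063), and Lef1 read 9.86, 9.90 and 10.77, 0.82 below (adjusted p = 0.0913), so neither passed the test. Gata3 read 10.33, 10.86 and 10.85, close to the mean of the others (a difference of 0.19). Ikzf1 read 11.38, 11.30 and 11.49, the highest mean of all 15 backgrounds. It rose by 0.94 ± 0.21 (SE) on the log2 scale, 1.92-fold, with 3 of 3 tumours above the mean of the others (adjusted p = 0.000592). That is 1 of 6 genes, against 32.6% of probe sets. Ets1 was also called on its second probe set, 1452163_at, with 12.94, 12.23 and 12.85 and a difference of 0.61 (adjusted p = 0.00264). Of 6 B-cell markers 5 rose, led by Ms4a1 (1.53) and Cd79a (1.23), and their sum was 12.14 to 12.94 against a median of 11.83 over the 13 backgrounds. Of 10 myeloid markers 3 rose, led by Itgam (3.32) and Lyz2 (1.31), and their sum was 14.11 to 14.78 against a median of 13.75. The part of these markers in the Ikzf1 difference was not tested. Of 14 partner factors tested 3 rose and 2 fell. Notch1 fell by 3.94 (adjusted p = 2.28e-07) and Hes1 by 1.47 (adjusted p = 5.63e-05), while Gfi1 rose by 1.33 (adjusted p = 0.00569). Of 14 T-cell identity genes 1 rose and 2 fell. Ptcra fell by 2.35 (adjusted p = 0.00176) and the kinase Fyn by 0.56 (adjusted p = 0.0336). Cd5, a surface brake on receptor signalling, rose by 1.92 (adjusted p = 0.00147). Whether the Cdkn2a knockout and beta-catenin tumours differ in these genes was not tested.

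Apart from the crossed tumours, Ikzf1 was lowest in Tal1 tumours and highest in beta-catenin and Ikaros Plastic tumours. In Tal1 tumours it read 9.30 and 9.36 and fell by 1.29 on the log2 scale (SE 0.26, adjusted p = 0.00169), and 1 of 6 genes was called against 4.55% of probe sets. Both tumours lay below every tumour outside E2A knock out (9.33 and 10.09), LMO1 (9.35, 10.22 and 10.68) and crossed. Leaving out either Tal1 tumour ended the call (adjusted p = 0.101 and 0.0503). In Ikaros Plastic tumours, which carry a point mutation of Ikzf1 itself, the transcript was not reduced, and it read 11.38, 10.74 and 11.53. It was higher than in the others by 0.75 ± 0.21 (SE; adjusted p = 0.00768), 1 of 6 genes against 27.1% of probe sets, and the call was lost without replicate 1 or 3 (adjusted p = 0.0536 and 0.0822). A point mutation need not change the transcript's level, so this does not check the label. Of the marker lists, 4 of 9 stromal, endothelial and epithelial markers and 3 of 10 myeloid markers rose in Ikaros Plastic tumours, and their part in the Ikzf1 difference was not tested. Among the 41 tumours of the 13 backgrounds, Ikzf1 ran against the beta-actin 3′ excess (Spearman rho -0.729, Pearson r -0.508, described with no test). The Tal1 arrays had beta-actin excesses of 1.08 and 0.571, and the beta-catenin arrays had 0.044 to 0.105. With beta-actin ratios added to the model, the Ikzf1 calls in Tal1, Ikaros Plastic and beta-catenin tumours held. Over the alternatives other than single left-out arrays, the difference ran from -1.38 to -1.10 in Tal1 tumours. It ran from 0.59 to 0.92 in Ikaros Plastic and from 0.76 to 1.11 in beta-catenin tumours. Beyond that ratio, the part of RNA quality in the Ikzf1 differences was not tested.

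Bcl11a, the progenitor member, was above the array median mainly in the TLX1, ThPOK and p53 knockout tumours, the groups through which it was tested. ThPOK is a zinc-finger factor that sets the CD4 fate, and in these tumours Bcl11a read 9.13, 9.39 and 9.04. It rose by 0.73 ± 0.14 (SE) on the log2 scale (adjusted p = 0.000224), with 3 of 3 tumours above the mean of the others, which are mostly below their array medians. Of 10 myeloid markers 4 rose, led by Fcgr3 (1.24) and Cd68 (1.02), and summed to 13.88 to 14.25 against a median of 13.75 over the 13 backgrounds. The B-cell marker Cr2 rose by 0.72. The part of these markers in the ThPOK differences was not tested. Ets1 read 12.03, 11.93 and 11.28 and fell by 0.68 (SE 0.14, adjusted p = 0.000482), so 2 of 6 genes were called against 24.5% of probe sets. Without ThPOK replicate 3, the lowest Ets1 value of all 53 arrays, the Ets1 difference was -0.45 (adjusted p = 0.0544). Ets1 rose in LMO1 tumours, where it read 12.81, 12.75 and 12.92 (0.49 ± 0.14 SE, adjusted p = 0.0146, 1 of 6 genes against 17.1% of probe sets). That call was lost when any of the 3 LMO1 tumours was left out (adjusted p = 0.0629 to 0.103). In LMO1 tumours 3 of 6 B-cell markers rose, and their part was not tested.

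The 3 p53 knockout tumours disagreed, and replicates 1 and 2 lie in the TLX1 array set while replicate 3 lies in the largest. Bcl11b read 12.39 and 12.53 in replicates 1 and 3 and 8.52 in replicate 2, the lowest of the 53 arrays. Gata3 read 10.55, 8.09 and 9.79 in replicates 1 to 3, and replicate 2 was again the lowest of all arrays. Lef1 read 9.17, 8.09 and 10.78, with replicate 2 the second lowest. Over the 3 tumours Gata3 fell by 1.11 (adjusted p = 0.00578) and Lef1 by 1.72 (adjusted p = 0.000275), while Bcl11a rose by 0.54 (adjusted p = 0.00187). That is 3 of 6 genes, against 46.8% of probe sets. Bcl11a is among them, and its probe set was tested because of groups such as this one. Without replicate 2 none of the 3 calls remained, with Gata3 at -0.42 (adjusted p = 0.407), Lef1 at -1.097 (adjusted p = 0.0504) and Bcl11a at 0.39 (adjusted p = 0.0786). Bcl11a read 9.14 and 9.32 in replicates 1 and 2 and 8.59 in replicate 3, so that for Lef1 and Bcl11a replicate 1 stood on the same side of replicate 3 as replicate 2. Replicates 1 and 2 share their array set with TLX1 arrays only. Once array sets were fitted as blocks, the differences from the other 12 backgrounds therefore rested on replicate 3 alone. Gata3 then differed by -0.78, Lef1 by -0.30 and Bcl11a by 0.14, the same values as in the largest array set by itself. Being values of 1 tumour, they cannot decide whether the 3 calls depend on the array set. Replicate 2 also had the lowest summed T-cell markers of all arrays (12.57, against 15.09 and 15.12 in the other p53 knockout tumours) and the highest stromal, endothelial and epithelial markers (15.33, against 13.48 and 13.09). Ikaros Plastic replicate 2 had a like pattern, with Bcl11b at 10.45 beside 12.10 and 12.30, Gata3 at 9.74 beside 11.06 and 11.34, T-cell markers at 14.47 beside 15.36 and 15.45, and stromal markers at 14.48 beside 13.71 and 13.23. Over the 3 p53 knockout tumours 5 of 7 T-cell markers fell and 6 of 9 stromal, endothelial and epithelial markers rose. The part of these markers in these values was not tested.

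**Figure D3:**
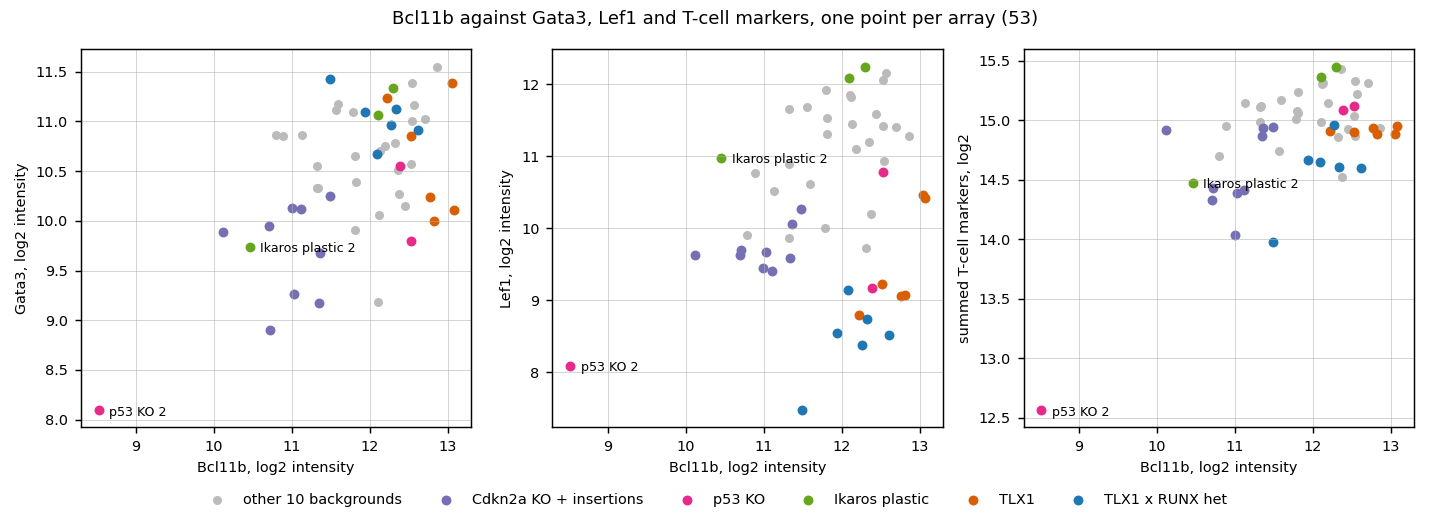
Bcl11b (horizontal axes, log2 intensity) is plotted against Gata3, Lef1 and the log2 of the summed intensity of 7 T-cell markers (vertical axes) for 53 arrays, a point per tumour and a colour per named background. p53 knockout replicate 2 sits far to the lower left in all panels, at 8.52 in Bcl11b and 12.57 in T-cell markers.

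Across the 41 tumours of the 13 backgrounds, Bcl11b ran with Lef1 (r = 0.643, rho = 0.548) and with Gata3 (r = 0.619, rho = 0.501), given as descriptions over arrays that share backgrounds. Over the deviations from background means, rho was 0.0746 for Bcl11b with Lef1, 0.555 for Bcl11b with Gata3 and 0.611 for Bcl11b with Ets1. The last pair had r = 0.25 and rho = 0.135 over the 41 tumours. Bcl11b and Lef1 thus varied together between backgrounds, and Bcl11b and Gata3 also between tumours of a background. Bcl11b and Ets1 varied together mainly between tumours of a background. Lef1 and Bcl11a ran in opposite directions (r = -0.5, rho = -0.488), as did Bcl11b and Ikzf1 (r = -0.36, rho = -0.449). The genes most like each member over these 41 arrays, of 9150 genes compared, were Tmem186 (rho 0.896) and Camk2g (0.841) for Bcl11b. They were Was (0.691) and Gmip (0.687) for Gata3, Dtx1 (0.815) and Slc12a7 (0.799) for Lef1, and Ogt (0.751) and Cd5 (0.709) for Ets1. For Ikzf1 they were Kat7 (0.795) and Dgcr8 (0.734), and for Bcl11a Grb7 (0.834) and Stmn4 (0.83).

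TLX1 tumours read higher in Bcl11b and Bcl11a and lower in Lef1 than the 13 backgrounds, differences that were not called under several alternatives. Bcl11b ran from 12.22 to 13.07 (median 12.79, n = 6), and 2 of the 6 tumours lay above every one of the 41 others. It was 0.91 ± 0.27 (SE) above the mean of the 13 backgrounds, 1.88-fold (adjusted p = 0.00537). Bcl11a ran from 9.12 to 9.63 (median 9.34), against 7.97 to 9.46 in the 41 others, and was 0.86 ± 0.10 (SE) higher (adjusted p = 5.58e-09). Its probe set was tested because of groups such as TLX1, so its calls in TLX1 are not independent of that selection. Lef1 ran from 8.79 to 10.46 (median 9.15), against 8.09 to 12.24, and fell by 1.44, 2.71-fold (SE 0.28, adjusted p = 3.69e-05). Ets1 ran from 11.73 to 12.31 and fell by 0.32 (adjusted p = 0.0103), a call lost without TLX1 replicate 4 or 6 (adjusted p = 0.0574 and 0.0585). Gata3 (10.001 to 11.39) differed by 0.13 (adjusted p = 0.68) and Ikzf1 (9.63 to 10.957) by -0.28 (adjusted p = 0.13). In total 4 of 6 genes were called, Bcl11a among them, 2 in each direction, against 50.8% of probe sets (25.4% higher and 25.4% lower). With beta-actin ratios added to the model, Lef1 differed by -0.47 (adjusted p = 0.479), Ets1 by -0.29 (adjusted p = 0.249) and Bcl11b by 1.20 (adjusted p = 0.0578), and Bcl11a alone was called. With the background as a random block the adjusted p was 0.488 for Bcl11b, 0.288 for Lef1, 0.557 for Ets1 and 0.076 for Bcl11a.

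All 6 TLX1 arrays shared their array set with p53 knockout replicates 1 and 2, which allowed a comparison inside that set. Lef1 was there 0.87 higher in TLX1 than in the 2 p53 knockout tumours (adjusted p = 0.547), the opposite direction of the comparison with 13 backgrounds. That value rests in part on p53 knockout replicate 2 (8.09, against 9.17 in replicate 1), and Lef1 was 0.33 higher than replicate 1 alone. Bcl11a was 0.15 higher (9.38 against 9.23, adjusted p = 0.694). Bcl11b was 2.29 higher (adjusted p = 0.536), a value set by p53 knockout replicate 2, and 0.35 higher than replicate 1 alone. None of the 6 genes was called inside the set. With the array set as a block Bcl11b alone stayed called, and with p53 knockout replicate 2 left out of that fit none was. Inside the set these fits hold 2 p53 knockout arrays at most, and the share of all probe sets they called is not given here. Neither the Bcl11b call nor the lack of other calls is therefore a result about these genes. Beyond these 2 p53 knockout arrays, the array set and the TLX1 background cannot be told apart.

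Of 13 regulators of the progenitor stage listed, 6 were tested, and on the TLX1 arrays 4 rose and 0 fell, against 25.4% of probe sets higher, with a median of 0.76 against -0.0043 over all probe sets. Lyl1, a relative of Tal1, rose by 1.71 (adjusted p = 5.81e-08), the cytokine receptor Flt3 by 1.69 (adjusted p = 1.24e-11) and the stem cell factor receptor Kit by 1.101 (adjusted p = 5.59e-07). Of 8 family relatives, 2 rose and 2 fell, with Tcf7l2, a TCF of the Wnt pathway, higher by 2.02 (adjusted p = 6.61e-13) and differences of -0.92 in Ets2 and -0.88 in Fli1, both ETS genes (adjusted p = 0.00228 and 5.64e-07). The p53 knockout tumours, which share the array set in part, also had Tcf7l2 (2.33), Flt3 (1.89) and Kit (1.53) called higher. Of 14 T-cell identity genes 1 rose and 1 fell. The cytokine receptor Il7r rose by 1.34 (adjusted p = 0.0182) and the adhesion receptor Cd2 fell by 0.92 (adjusted p = 0.0255). Stromal, endothelial and epithelial markers summed to 12.79 to 14.49 in TLX1 (median 13.82, against 13.10 over the 13 backgrounds), and 3 of 9 rose. Rises also came in 2 of 6 B-cell markers (Cd79a by 0.66 and Cd22 by 0.45), in 1 of 3 erythroid markers (Hba-a1 by 1.23) and in 2 of 10 myeloid markers (Csf1r by 1.13 and Cd14 by 0.57), where 1 fell. The part of these markers in the TLX1 differences was not tested.

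The crossed tumours had the lowest Ikzf1 of the series, on arrays that also stand apart in the 18S control and in their medians. Ikzf1 ran from 8.07 to 8.53 (median 8.32, n = 6), below all 47 other arrays, of which the TLX1 arrays ran from 9.63 to 10.957. All 6 values were below the medians of their own arrays (8.56 to 8.66). Against TLX1 it fell by 1.93, 3.81-fold (SE 0.20, adjusted p = 6.3e-11). Bcl11a ran from 7.43 to 7.64 (median 7.57), also under the array medians, and read 1.82 below TLX1 (SE 0.14, adjusted p = 3.8e-15), with no fold given for so dim a signal in a probe set that was tested because of groups such as TLX1. Its other probe set, below the array median on all arrays, read 7.03 to 7.25 in crossed and 7.67 to 7.999 in TLX1. Lef1 ran from 7.47 to 9.14 (median 8.53), overlapped the TLX1 range and fell by 1.04 (SE 0.36, adjusted p = 0.0135). That call was lost with quantile normalization (-0.69, adjusted p = 0.105), with centred arrays (-0.66, adjusted p = 0.111), and without TLX1 replicate 3 or 4 or crossed replicate 1 (adjusted p = 0.05 to 0.0511, the lower value just not under the threshold). In total 3 of 6 genes were called lower, Bcl11a among them, and 0 higher, against 34.5% of probe sets lower and 56.9% in either direction. Of all calls in this comparison 39.2% were higher, and 54.4% after quantile normalization or 68.2% with arrays centred on their medians. The Ikzf1 and Bcl11a calls held under each alternative run, none of which separates the cross from the 18S signal.

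Gata3 and Bcl11b did not pass the test between crossed and TLX1 tumours. Gata3 ran from 10.67 to 11.43 in crossed, 0.39 above TLX1 (adjusted p = 0.299), and was called with centred arrays (0.77, adjusted p = 0.0353). Bcl11b ran from 11.49 to 12.61, a difference of -0.62 from TLX1 (adjusted p = 0.14), and was called when p53 knockout replicate 2 was left out of the fit (adjusted p = 0.0128). Against the 13 backgrounds Lef1 fell by 2.47, Ikzf1 by 2.21 and Bcl11a by 0.96 in the crossed tumours (adjusted p at most 2.67e-10). Gata3 was 0.53 higher and narrowly missed the threshold (adjusted p = 0.0575). It was called with centred arrays (0.83, adjusted p = 0.00332) and without any of 8 single arrays (adjusted p = 0.03 to 0.0493). The called genes were 3 of 6, against 64.2% of probe sets in either direction and 40.7% lower. Of all those calls 36.6% were higher, and 47.1% after quantile normalization or 62.6% with centred arrays. Of the 9 probe sets tested, those of Ikzf1 and Bcl11a and 1422027_a_at of Ets1 (3 in all) lay below all 47 other arrays on all 6 crossed arrays, against 14.7% of probe sets. All crossed arrays form an array set of their own, so the array set and the cross cannot be told apart.

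Of 14 T-cell identity genes, 7 fell and 0 rose in the crossed tumours against TLX1, where 34.5% of probe sets were lower and scaling moved the split of calls as given above, with a median of -0.66 against -0.07 over all probe sets. Ptcra fell by 2.74 (adjusted p = 6.12e-05), Cd3d, a CD3 chain, by 1.69 (adjusted p = 0.0035) and the kinase Fyn fell by 1.57 (adjusted p = 5.83e-09). Of 6 progenitor regulators 4 fell and 1 rose, with Flt3 at -2.84 (adjusted p = 2.07e-15) and Kit at -2.09 (adjusted p = 4.52e-11). Tcf7l2 fell by 3.86 (adjusted p = 1.57e-18) and Elf4, an ETS factor, by 2.01 (adjusted p = 2.04e-14), while Fli1 rose by 1.998 (adjusted p = 3.19e-13). Notch1 fell by 1.95 (adjusted p = 0.00126). Summed T-cell markers ran from 13.98 to 14.96 in crossed (median 14.63) and from 14.89 to 14.95 in TLX1 (median 14.91). The markers of natural killer and innate lymphoid cells summed to 11.31 to 13.96 in crossed and 11.35 to 11.87 in TLX1, and 2 of 3 tested rose. B-cell markers summed to 11.06 to 11.71 in crossed, with the 5 lowest sums of all arrays, and to 11.84 to 12.37 in TLX1. Of 6 tested 3 fell, with Cd22 at -2.04, Cd79a at -1.65 and Cr2 at -1.27. Of 10 myeloid markers 4 rose and 3 fell, and they summed to 13.27 to 15.23 in crossed (median 13.78) and 13.52 to 14.10 in TLX1 (median 13.79). Crossed replicate 1 had the highest myeloid (15.23) and natural killer (13.96) sums of all arrays. It also had the lowest T-cell sum of the crossed tumours (13.98). Of 3 erythroid markers 2 fell, with Hba-a1 at -3.11 and Klf1 at -0.53. The part of these markers and of the 18S signal in the crossed differences was not tested.

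Ets1 gave different answers by probe set, and the plot of its 4 probe sets shows where. Probe sets 1426725_s_at, the brightest, and 1452163_at ran together over 53 arrays (r = 0.841). Probe set 1422027_a_at was unrelated to the brightest (r = 0.0124), and its r with 1422028_a_at was 0.362. On 1422027_a_at the crossed tumours read 8.46 to 8.98, below all 47 others (10.32 to 12.27), and fell by 3.04 against TLX1, 8.24-fold (SE 0.18, adjusted p = 3e-18). On 1452163_at the same tumours read 12.14 to 12.81, above all 6 TLX1 arrays (10.98 to 11.81), and were 1.08 ± 0.15 (SE) higher (adjusted p = 8.24e-08). On 1426725_s_at and 1422028_a_at they differed by 0.24 (adjusted p = 0.127) and -0.40 (adjusted p = 0.119). The transcripts that each probe set detects are not named in the gene table used.

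**Figure D4:**
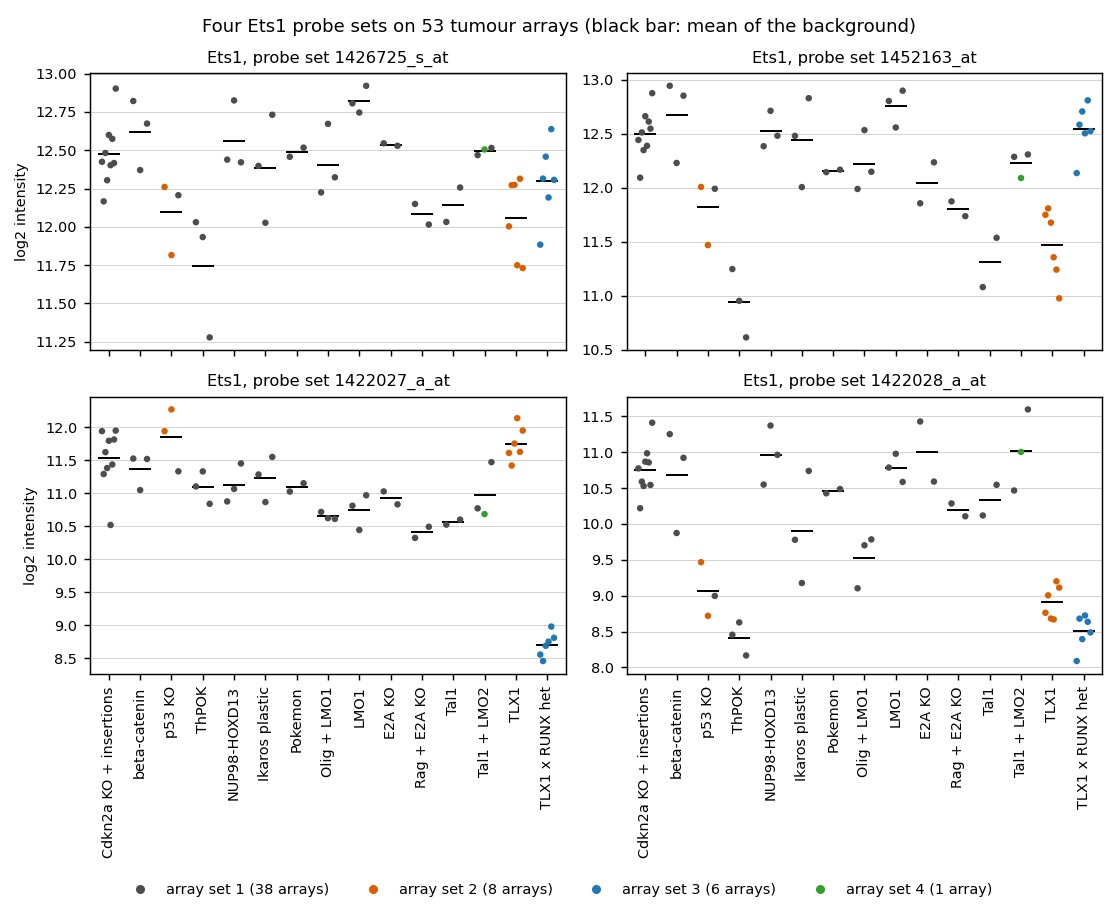
Panels give log2 intensity (vertical axes) of the 4 Ets1 probe sets on 53 arrays by background (horizontal axes). Points are tumours coloured by array set, and bars are means. The crossed tumours are lowest on 1422027_a_at (8.46 to 8.98) and among the higher groups on 1452163_at (12.14 to 12.81).

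The Ets1 probe sets also split in TLX1 and p53 knockout tumours. In TLX1 tumours 1422027_a_at rose by 0.71 (adjusted p = 3.96e-05) while 1452163_at fell by 0.64 (adjusted p = 1.55e-05) and 1422028_a_at by 1.33 (adjusted p = 1.85e-08). In p53 knockout tumours 1422027_a_at rose by 0.87 (adjusted p = 0.000212) and 1422028_a_at fell by 1.28 (adjusted p = 2.13e-05). In ThPOK tumours 3 of the 4 fell, with 1422028_a_at at 8.46, 8.63 and 8.17 and a difference of -1.97 (adjusted p = 5.46e-08). In the Cdkn2a knockout tumours the brightest probe set differed by 0.11 and the other 3 rose by 0.42 to 0.56 (adjusted p at most 0.00192). On 1452163_at LMO1 tumours rose by 0.70 (adjusted p = 0.0022) and Tal1 tumours fell by 0.87 (adjusted p = 0.00522). On 1422028_a_at 3 backgrounds with no call on a brightest probe set were called. Nup98HoxD13 rose by 0.78 (adjusted p = 0.0487), Tal1 with LMO2 rose by 0.85 (adjusted p = 0.0299) and Olig with LMO1 fell by 0.77 (adjusted p = 0.0226).

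To ask whether a second lesion moved these genes, 3 nested pairs of backgrounds were compared. None of the 18 differences passed the adjusted limma test, and 3 had an unadjusted p under 0.05, 1 in each pair. Between Tal1 with LMO2 and Tal1, Ikzf1 read 10.79, 10.13 and 10.48 against 9.30 and 9.36, a difference of 1.13 ± 0.32 (SE; adjusted p = 0.13), with 0.25% of probe sets called, 7.05% at an unadjusted p under 0.05 and 29.9% not overlapping between the groups. Between rag E2A knock out and E2A knock out, Ikzf1 read 10.69 and 10.79 against 9.33 and 10.09, a difference of 1.03 ± 0.35 (SE; adjusted p = 0.73), with 0% called, 5.01% at an unadjusted p under 0.05 and 45% not overlapping. Between Olig with LMO1 and LMO1, Ets1 read 12.22, 12.67 and 12.32 against 12.81, 12.75 and 12.92, a difference of -0.42 (SE 0.19, adjusted p = 0.485), with 0.5% called, 8.93% at an unadjusted p under 0.05 and 18.4% not overlapping. These 3 differences had no overlap between the groups either, and were picked for their unadjusted p.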

How the data were processed

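The authors deposited a table of normalized, linear intensity for 22690 probe sets and 53 arrays; how it was normalized, which bears on any difference in overall level, was not given in the sources used here. RNA was extracted with Trizol and labelled as biotinylated cRNA, per the labels' protocols. Intensities were converted to log2 here. Probe sets were named from the platform's gene table (20380 with 1 symbol, 691 with several, 1555 unnamed, 64 controls). The 15585 probe sets that exceeded their array's median in 3 or more tumours were fitted with limma 3.58.1 (lmFit, eBayes) in R 4.3.3, with a mean for each of 15 backgrounds, two-sided, Benjamini-Hochberg adjustment over all of them and a threshold of 0.05. The highest correlation between arrays was 0.988 and 0 pairs were identical. Array sets came from average-linkage clustering of 27 control probe sets. Genes and lists were chosen with earlier results of these data known. Named beside the members are the 2 genes of highest Spearman correlation with each and up to 3 called genes of largest difference per list. The fit was tested on simulated data. Alternatives covered the filter, scaling, probe set choice, array set, beta-actin ratio, replicate block and each left-out array or background. The number of arrays limits the precision. Promoters are RefSeq's (GRCm38.p6).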

Additional observations from a re-analysis of the deposited data

Results flagged for a closer look

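2 of 30 groups of probe set and background, each with 6 or 9 tumours, had a tumour far from the others, and chance flags about 1 in 20. Both lie in the Cdkn2a knockout tumours. Bcl11a was at 9.46 in replicate 8, the tumour titled for Pim1 and Ccnd3, and the nearest of the other 8 was at 8.82. Ets1 probe set 1422027_a_at was at 10.52 in replicate 6, a tumour titled for Myb, and the nearest of the others was at 11.29.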

How the results depend on the processing

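The 4 TLX1 calls became 1 with the array set as a block, 0 against only those p53 knockout arrays that share the TLX1 array set, 1 with beta-actin ratio as covariate, 0 with the background as a random block, and 0 with the array set as a block and p53 knockout replicate 2 left out, an alternative chosen after seeing the data; the cause was not tested. The share of all probe sets called in each of those alternatives is not given here. Without single replicates the counts were 6 to 6 genes varying between backgrounds, 4 to 4 called in TLX1, 2 to 4 in crossed against TLX1, 12 to 15 pairs over 13 backgrounds and 0 to 0 in nested pairs. In TLX1, Lef1 turned to 0.59 (array set as a block), 0.87 (p53 knockout controls) and 0.053 (block without p53 knockout replicate 2), Ets1 to 0.019 (p53 knockout controls), Ets1 probe set 1422027_a_at to -0.037 (block) and -0.36 (p53 knockout controls), Ikzf1 to 0.092 (beta-actin) and Gata3 to -0.020 (without TLX1 replicate 3; up to 0.26 without others) and -0.63 (block without p53 knockout replicate 2). In crossed tumours Ets1 turned to -0.53 (mean of probe sets) and -0.40 (probe set of largest interquartile range) against TLX1, and to 0.23 (centred arrays) and 0.0077 (without crossed replicate 1; down to -0.14 without others) against the 13 backgrounds; none of these crossed values was called but the first (adjusted p = 0.00078). In crossed against TLX1 the median of all probe sets moved from -0.07 to 0.31 with centred arrays and to 0.09 with quantile normalization. The replicate block was run without the Cdkn2a knockout arrays, whose titles do not number them in a single run. With it, Bcl11b in TLX1 was 0.75 (adjusted p = 0.0821). Same-numbered arrays correlated over 0.1 in 29 of 216 pairs, and 13 of 44 arrays correlated best with their own number, so the samples share only a number. Dim probe sets limit what can be read of Bcl11a.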
